A study of Paxillus involutus with 18 samples.

Results

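In *Pa. involutus*, 36 of the 12214 isotigs on the array (0.295%) form the set described here. On a cold water extract of maize compost (MC), their mean log2 level was at least 0.8 above that in the control medium MMN. Their changes in the other 3 media were 0.5 or less, and 2 more isotigs within these limits were left out. The fungus, wild-type strain ATCC 200175, was grown for 9 days on glass beads in MMN, a mineral medium with glucose, starved of N for 24 h and kept for 7 days in the test medium. The media were MC, a hot water extract of maize compost (MH), a hot water extract of forest litter from a spruce stand (FH), carboxy methyl cellulose (CMC) and MMN. The extracts had been passed through a 0.2 µm filter and freed of molecules below a cutoff of 10 kDa, and glucose had been added to the extracts and to CMC. FH and MH had 3 biological replicates on slide 1 and MC and CMC had 3 on slide 2, with 1 array each, and MMN had 3 arrays on each slide. All arrays held RNA of the same strain. Replicate numbers and tracking controls of MMN are shared between the slides, and the labels do not say whether the RNA was the same. Deviations of same-numbered MMN arrays from their slide means correlated between slides at 0.26, 0.45 and 0.49 over isotigs, and each array correlated best with its own number.

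Ectomycorrhizal fungi such as *Pa. involutus* live on sugars from the roots of trees and take up N from organic matter in the soil, where much of it is bound in proteins and in complexes with polyphenols. Cold water takes the readily dissolved part of a compost, while hot water also releases matter, carbohydrates among it, that cold water leaves behind. An isotig is a transcript assembled from sequencing reads, and isotigs of 1 gene can be splice variants. The files pair no isotig with a gene name, a description or a sequence, and none of the 12214 identifiers was found among the 18033 genes of the reference table, so the isotigs are given by number and no role is assigned to them.

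The isotigs were chosen by these measurements. The change in a medium is the mean of its 3 arrays minus the mean of the 3 MMN arrays of the same slide, in deposited log2 values, so that a change of 1 is 2-fold. The limits were a change of at least 0.8 on MC and of 0.5 or less on each of FH, MH and CMC. They were met by 38 isotigs, of which paxillus_7541 and paxillus_3631, annotated by the study as a tyrosinase and a cytochrome P450 monooxygenase, were left out. What follows on the changes is therefore a description of the choice, with no test. Each array measured RNA of a whole mycelium, so fewer cells with a transcript and less transcript per cell cannot be told apart.

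A change of 0.8 or more on MC was seen for 551 isotigs, and 6.53% of these were among the 36. Most of the 551 also had a change over 0.5 elsewhere: 508 on MH, 397 on CMC and 351 on FH, with 323 over 0.5 in all 3. Of the 551, 90 were over 0.5 on MH and in neither of the other media, 3 on FH alone and none on CMC alone. With the same limits and the media exchanged, 92 isotigs were raised on MH alone, 9 on FH alone and 1 on CMC alone. With the sign turned, 18 isotigs were lowered on MC alone.

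Among the 36, the change on MC ran from 0.81 to 1.92, or from 1.75-fold to 3.77-fold, with a median of 1.07. It was over 1.5 for 5 isotigs and over 1 for 22. The median change was 0.25 on MH, -0.04 on FH and -0.12 on CMC. Over all 12214 isotigs the medians were -0.07 on MC, -0.06 on MH, -0.06 on FH and -0.07 on CMC.

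**Figure D1:**
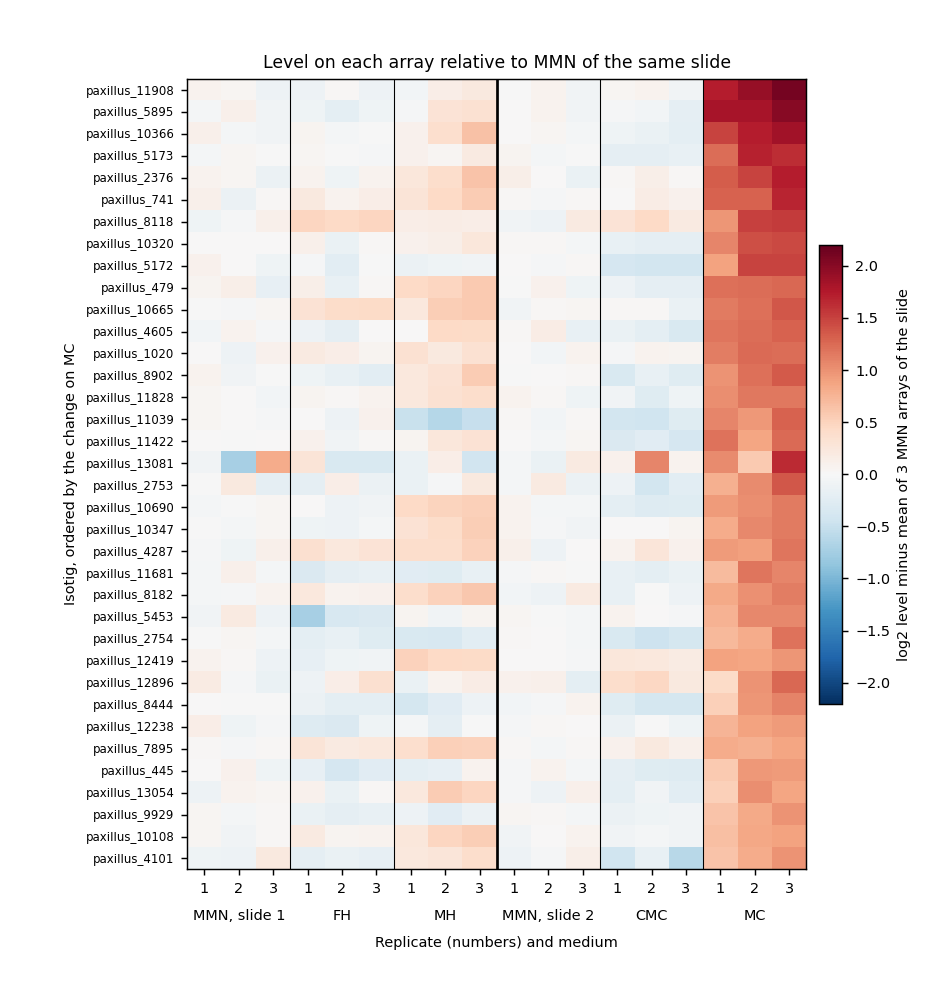
The 36 isotigs (rows, ordered by the change on MC) on the 18 arrays (columns, by medium and replicate), coloured by the log2 level minus the mean of the 3 MMN arrays of the same slide; the thick line parts slide 1 from slide 2. The 3 MC columns are red for every isotig, MH is pale red for many, and paxillus_11039 is blue on MH and CMC.

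The isotig with the largest change on MC was paxillus_11908. Its log2 level was 12.09, 12.29 and 12.47 on the MC arrays, against 10.36, 10.45 and 10.30 on the MMN arrays of slide 2 and 10.42, 10.44 and 10.30 on CMC. On slide 1 it was 10.73, 10.71 and 10.55 on MMN, 10.55, 10.68 and 10.54 on FH and 10.60, 10.80 and 10.87 on MH. The MC arrays thus lay 1.22 or more above each of the other 15 arrays, which ran from 10.30 to 10.87. MMN of slide 2 minus MMN of slide 1 was -0.30, and the mean on MC was 1.62 above the higher MMN mean. The change was 1.92 (standard error 0.09 from limma), or 3.77-fold, against 0.09 on MH, 0.02 on CMC and -0.07 on FH.

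The widest gap between MC and all other arrays was that of paxillus_5895. Its level was 13.52, 13.53 and 13.72 on MC, and the highest of the other 15 arrays, an MH array, was at 11.94. On MMN it was 11.72, 11.78 and 11.63 on slide 2 and 11.55, 11.71 and 11.52 on slide 1. No array of another medium came within 1.58 of the lowest MC array. The change was 1.88 on MC (standard error 0.09), 0.21 on MH, -0.10 on CMC and -0.13 on FH.

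In paxillus_10366 the MH arrays were spread. Its level was 11.19, 11.42 and 11.54 on MC, 9.71, 9.75 and 9.65 on MMN of slide 2 and 9.60, 9.55 and 9.49 on CMC. On slide 1 it was 9.99, 10.27 and 10.55 on MH, 10.01, 9.86 and 9.83 on MMN and 9.96, 9.85 and 9.89 on FH. The MH arrays thus ran from the level of MMN to 0.64 under the lowest MC array. The change was 1.68 on MC (standard error 0.11) and 0.37 on MH.

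Isotig paxillus_5173 differed from MMN on MC and in no other medium by more than 0.18. Its level was 13.16, 13.63 and 13.55 on MC, 11.99, 11.88 and 11.92 on MMN of slide 2 and 11.74, 11.74 and 11.76 on CMC. On slide 1 all 9 arrays lay between 11.83 and 12.07. One MC array was lower than the other two, yet stood 1.09 above every other array. The change was 1.52 on MC (standard error 0.08) and 0.11 on MH. This standard error rests on a spread shared by all groups, while the SD was 0.25 on MC and 0.06 on MMN of slide 2.

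Isotig paxillus_2376 had a part of its change on MH too. It stood at 12.51, 12.66 and 12.91 on MC and at 11.31, 11.19 and 11.04 on MMN of slide 2. On MH it stood at 11.39, 11.53 and 11.76, against 11.22, 11.19 and 11.01 on MMN of slide 1. The MH arrays were all above these MMN arrays and all below the MC arrays. The change was 1.51 on MC (standard error 0.10), 0.42 on MH, 0.05 on CMC and 0.02 on FH.

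The other isotigs with a change over 1.2 were paxillus_741 (1.42), paxillus_8118 (1.33), paxillus_10320 (1.32), paxillus_5172 (1.28), paxillus_479 (1.24), paxillus_10665 (1.24), paxillus_4605 (1.23) and paxillus_1020 (1.20). Their standard errors ran from 0.06 for paxillus_1020 to 0.12 for paxillus_8118. The MC arrays of paxillus_479 were the closest to each other of all 36, at 13.36, 13.37 and 13.40, against 12.13, 12.23 and 12.04 on MMN of slide 2. For paxillus_5172 the MC arrays were 0.60 apart, at 12.43, 13.03 and 13.02, against 11.54, 11.52 and 11.57 on MMN. In all 8 isotigs the lowest MC array was above the highest of the other 15 arrays.

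The 11 isotigs that complete the 24 with the largest change had changes from 0.99 to 1.18 on MC. They were paxillus_8902 (1.18), paxillus_11828 (1.12), paxillus_11039 (1.11), paxillus_11422 (1.10), paxillus_13081 (1.08), paxillus_2753 (1.06), paxillus_10690 (1.03), paxillus_10347 (1.01), paxillus_4287 (1.01), paxillus_11681 (0.99) and paxillus_8182 (0.99). Their standard errors lay between 0.06 and 0.14, apart from that of paxillus_13081, which was 0.34. The remaining 12 had changes from 0.81 to 0.96.

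**Figure D2:**
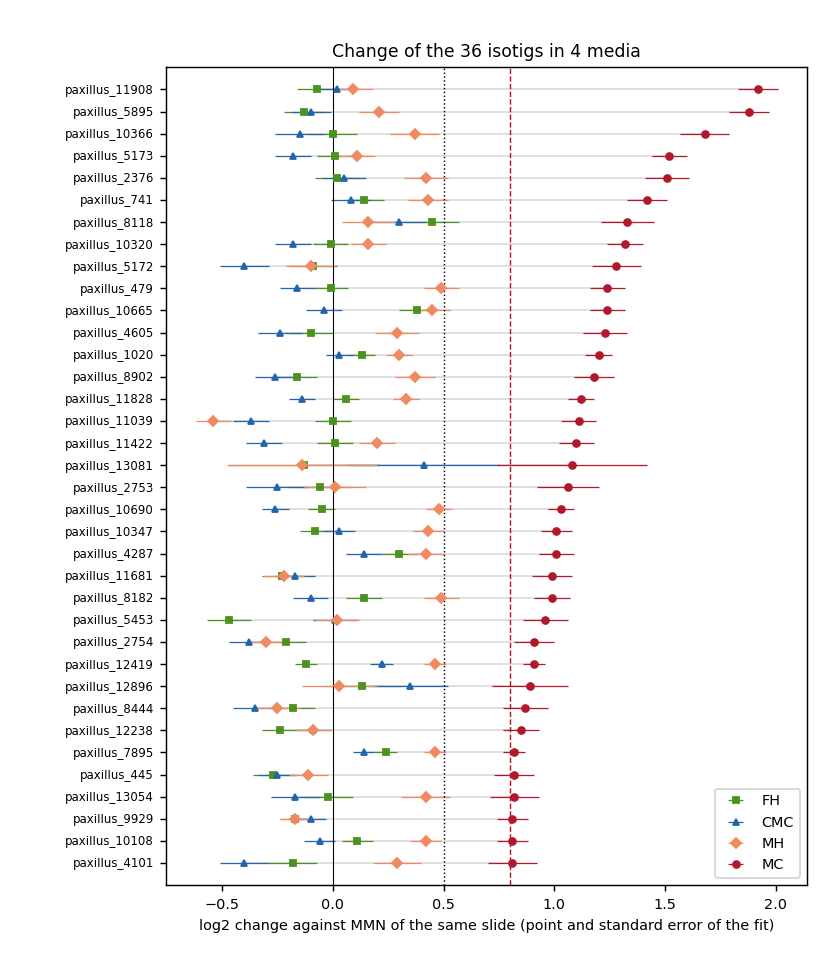
Change of each of the 36 isotigs against MMN of the same slide on the log2 scale in MC, MH, FH and CMC, with bars for the standard error of the fit; the dashed line marks the limit of 0.8 on MC and the dotted line that of 0.5 elsewhere. MH is the next medium after MC for 26 isotigs and CMC is the lowest for 22.

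At the edge of the limits, the lowest changes on MC inside were 0.807 for paxillus_4101, 0.808 for paxillus_10108 and 0.809 for paxillus_9929. Just outside were paxillus_4286 with 0.798, paxillus_122 with 0.797 and paxillus_3510 with 0.782. The highest changes in another medium inside were those on MH of paxillus_8182 and paxillus_479, both 0.493, and of paxillus_10690, 0.483. Just outside were paxillus_10214, which the study annotates as an aromatic peroxygenase, with 0.504 on MH, paxillus_7184 with 0.528 on MH and paxillus_7617 with 0.543 on FH. For paxillus_10214 the change on MC was 1.26, so only its change on MH, 0.504 against the limit of 0.5, set it apart from the 36.

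The hot extract of the compost was the medium next to MC. The change on MH was the highest of the other 3 for 26 of the 36 isotigs, that on FH for 5 and that on CMC for 5. This is not particular to the 36. Of the 551 isotigs with a change of 0.8 or more on MC, 508 were over 0.5 on MH, against 397 on CMC and 351 on FH. On MH 27 isotigs had a change above 0, and 16 had one of 0.3 or more. These 16 included paxillus_10366, paxillus_2376, paxillus_741, paxillus_479, paxillus_10665 and paxillus_8902. Their median change on MC was 1.07, the same as that of the 20 isotigs with a change under 0.3 on MH. The 3 MH arrays lay above the 3 MMN arrays of slide 1 for 19 of the 36, and 32.9% of all isotigs had this order.

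In paxillus_479 the change on MH was 0.49. The MH arrays stood at 12.66, 12.69 and 12.80, above MMN of slide 1 at 12.28, 12.35 and 12.04 and below MC at 13.36 or more. In paxillus_8182 the MH arrays stood at 12.18, 12.30 and 12.39 and the MC arrays at 12.61, 12.77 and 12.90. Here only 0.22 lay between the 2 sets of arrays.

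At the other end was paxillus_11039, the only one of the 36 with a change of -0.5 or lower in any medium. Its level on MH was 10.08, 9.95 and 10.07, below each array of MMN of slide 1, at 10.61, 10.57 and 10.54. On MC it was 11.63, 11.51 and 11.86, against 10.58, 10.50 and 10.59 on MMN of slide 2. Its level thus lay on opposite sides of MMN on the 2 compost extracts, with a change of 1.11 on MC and -0.54 on MH. On CMC its change was -0.37, and on FH the arrays, at 10.58, 10.46 and 10.67, overlapped those of MMN.

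The changes in all 3 other media were below 0 for 7 isotigs and above 0 for another 7. The first group held paxillus_5172, paxillus_11681, paxillus_2754, paxillus_8444, paxillus_12238, paxillus_445 and paxillus_9929. The second held paxillus_2376, paxillus_741, paxillus_8118, paxillus_1020, paxillus_4287, paxillus_12896 and paxillus_7895. All 3 other changes lay within 0.2 of 0 for 4 isotigs, paxillus_11908, paxillus_5173, paxillus_10320 and paxillus_9929. The gap between the change on MC and the next highest change was 0.90 in the median, over 1 for 12 isotigs and 0.36 at the least, for paxillus_7895 against MH.

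The cellulose medium was on the same slide as MC, so their difference needs no MMN array, but the limits on both changes already fix it at 0.3 or more for each of the 36. MC minus CMC was 1.24 in the median of the 36, from 0.54 for paxillus_12896 to 1.98 for paxillus_5895, and -0.01 in the median of all isotigs. On CMC 24 of the 36 had a change below 0, where the median change of all isotigs was also below 0, at -0.07. CMC was the lowest of the 3 other media for 22, and no share of all isotigs is given for this order. The 3 CMC arrays lay below the 3 MMN arrays of slide 2 for 15 isotigs, an order that 38.7% of all isotigs had. In paxillus_5172 CMC stood at 11.17, 11.13 and 11.13, a change of -0.40 from MMN. In paxillus_4101 it stood at 11.93, 12.20 and 11.75, also a change of -0.40, with MMN of slide 2 at 12.25, 12.33 and 12.49.

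On the litter extract FH 27 of the 36 isotigs were within 0.2 of MMN. No share of all isotigs is given for this, and their median change on FH was -0.06. The limit of 0.5 on FH also favours such values. The 3 FH arrays lay above the 3 MMN arrays for 6, and 23.0% of all isotigs had that order. The highest change on FH was 0.45, for paxillus_8118, with FH at 11.86, 11.82 and 11.86 and MMN of slide 1 at 11.30, 11.36 and 11.51. Its change on CMC was 0.30, and its MC arrays stood at 12.38, 12.92 and 12.95. The lowest change on FH was -0.47, for paxillus_5453, with FH at 12.25, 12.62 and 12.67 and MMN at 12.90, 13.18 and 12.86. All FH arrays of paxillus_5453 lay below MMN, while its changes on MH and CMC were 0.02 and 0.01.

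The replicates of MC did not overlap with other arrays for most of the 36. All 3 MC arrays lay above all 15 other arrays for 33 isotigs, and 3.29% of all isotigs had this order. The median distance from the lowest MC array to the highest other array was 0.51. The isotigs with overlap were paxillus_13081, paxillus_12896 and paxillus_13054. For all 36 the MC arrays lay above the 3 MMN arrays of slide 2, as they did for 26.3% of all isotigs. They lay above the 3 CMC arrays for 34, against 18.7% of all isotigs. The limits on the mean changes favour all these orders, so the counts describe the choice and give it no separate support.

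**Figure D3:**
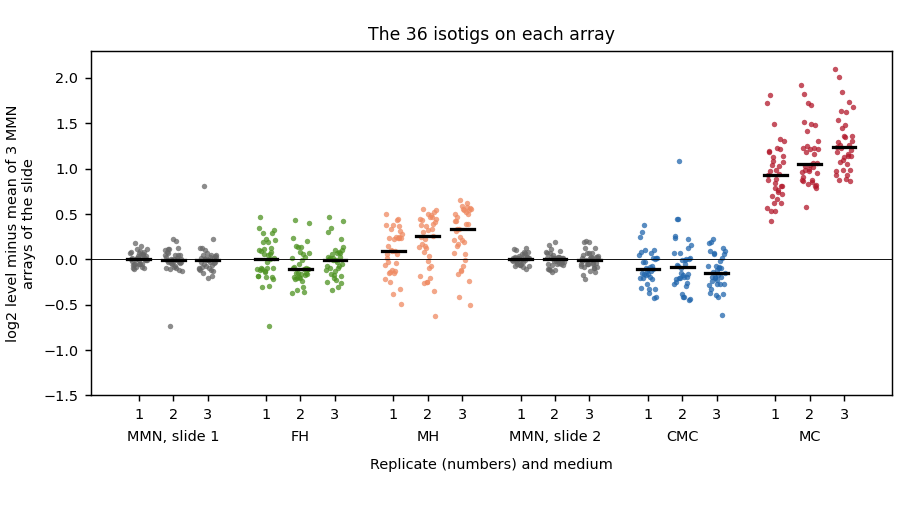
The 36 isotigs on each of the 18 arrays (points) as log2 level minus the mean of the 3 MMN arrays of the slide, with the median of each array as a black line. The medians are 0.93, 1.05 and 1.24 on MC replicates 1, 2 and 3, and between -0.14 and 0.34 on the FH, MH and CMC arrays.

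The 3 MC arrays were not equal. The median of the 36 above the MMN mean of slide 2 was 0.93 on MC replicate 1, 1.05 on replicate 2 and 1.24 on replicate 3. Replicate 1 was the lowest of the 3 for 30 isotigs (83.3%) and replicate 3 the highest for 29 (80.6%). Over all isotigs replicate 1 was the lowest for 35.5% and replicate 3 the highest for 31.2%. The order was shared with the other 513 isotigs whose change on MC was 0.8 or more, of which 70.8% had replicate 1 the lowest and 64.3% had replicate 3 the highest. The SD over the MC arrays was 0.18 in the median of the 36, 0.09 in that of the other 513 and 0.07 over all isotigs. On CMC, in contrast, the median SD of the 36 was 0.06, as it was over all isotigs. The standard errors of the fit use a single spread per isotig for all groups. They can therefore be too small for changes on MC. The MC arrays lay within 0.3 of each other for 14 of the 36 and over 0.5 apart for 6.

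The label of MC replicate 3 is at odds with itself: its title, source and medium name MC and its free text names MH. Without it the median change of the 36 was 0.96 in place of 1.07, and 27 of the 36 kept a change of 0.8 or more, the lowest being 0.70. On the hot extract the medians were 0.10, 0.25 and 0.34 on MH replicates 1, 2 and 3. MH replicate 1 was the lowest for 25 of the 36 and for 38.8% of all isotigs. The median SD of the 36 over the MH arrays was 0.10, against 0.18 over the MC arrays. Without MH replicate 1, 9 of the 36 passed 0.5 on MH and no longer met the limits, among them paxillus_10366, paxillus_2376, paxillus_479 and paxillus_10665.

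The limits combine changes from 2 slides, so the MMN arrays of both slides enter them. MMN of slide 2 minus MMN of slide 1 had a median of -0.02 over the 36, as over all isotigs. It ran from -0.30 for paxillus_11908 to 0.22 for paxillus_10690. It was below 0 for 21 of the 36 and for 53.7% of all isotigs. Against the higher of the 2 MMN means, the level on MC was still at least 0.8 higher for 29 of the 36, with a median of 1.02. The lowest such value was 0.56, for paxillus_12238, whose MMN arrays stood at 13.34, 13.09 and 13.16 on slide 1 and at 12.88, 12.94 and 12.92 on slide 2. Its MC arrays, at 13.65, 13.79 and 13.84, lay above all of them.

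Most of the 36 were well above the signal of random control probes, which had a value between 3.69 and 3.85 on the arrays. On MMN of slide 2, 33 isotigs had a level of 8.80 or more, up to 12.91 for paxillus_12238. The other 3, paxillus_13081, paxillus_12896 and paxillus_13054, had mean levels of 2.93, 3.72 and 5.07. A level under 6 there was seen for 700 isotigs (5.73%) on the array. These 3 are also the isotigs with the highest numbers among the 36, from 12896 up. Of the 727 isotigs on the array with such numbers, 536 were under 6.

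In paxillus_13081, which had only 4 probes where the other 35 had 10, MC stood at 3.97, 3.51 and 4.57. The MMN arrays stood at 2.88, 2.79 and 3.13 on slide 2 and at 3.08, 2.43 and 3.97 on slide 1, and CMC replicate 2 at 4.01. MC thus overlapped with CMC and with MMN of the other slide. In paxillus_12896 MC stood at 4.14, 4.70 and 4.98 and FH at 3.89, 4.15 and 4.35. In paxillus_13054 MC stood at 5.60, 6.10 and 5.94 and MH at 5.45, 5.77 and 5.68, so these 2 overlapped as well. The part of background signal in these 3 was not tested. With these 3 left out, the median change of the remaining 33 was 1.10 on MC, 0.29 on MH, -0.05 on FH and -0.14 on CMC, and all 33 had the 3 MC arrays above the other 15.

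**Figure D4:**
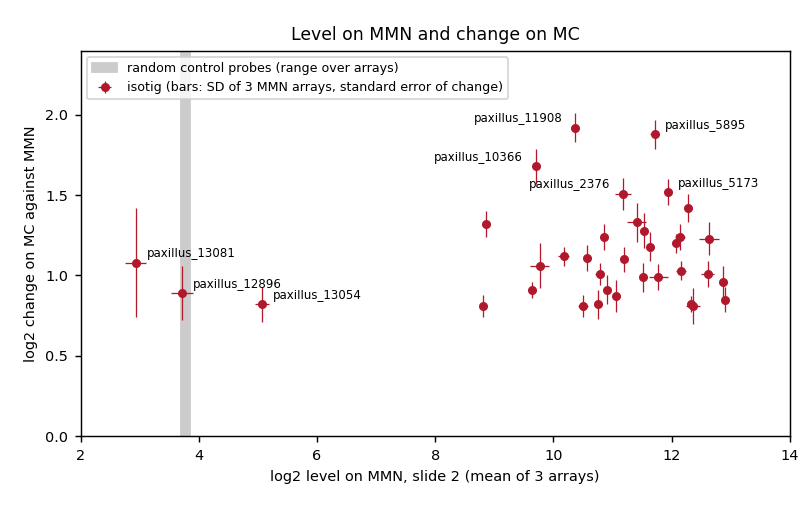
Change on MC (vertical, log2, with the standard error of the fit) against the level on MMN of slide 2 (horizontal, log2, with the SD of 3 arrays) of the 36 isotigs; the grey band is the range of the random control probes over the arrays. The 3 isotigs at 2.93, 3.72 and 5.07 stand apart from the other 33, which lie at 8.80 or more.

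Several isotigs that the study assigns to a single gene carry neighbouring numbers. Among the 36, 2 pairs had consecutive numbers, paxillus_5172 with paxillus_5173 and paxillus_2753 with paxillus_2754. The changes of paxillus_5172 were 1.28 on MC, -0.10 on MH, -0.09 on FH and -0.40 on CMC, and those of paxillus_5173 were 1.52, 0.11, 0.01 and -0.18 in the same order. In both, MC replicate 1 was the lowest MC array. The changes of paxillus_2753 were 1.06 on MC, 0.01 on MH, -0.06 on FH and -0.25 on CMC, and those of paxillus_2754 were 0.91, -0.30, -0.21 and -0.38. The sources used here do not say whether the isotigs of a pair come from a single gene or share probe sequence.

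The 132 other isotigs whose numbers lie 1 or 2 from one of the 36 had a median change of -0.10 on MC, and 4 of them reached 0.8. These were paxillus_4604 with 1.58, paxillus_2755 with 1.48, paxillus_5893 with 1.00 and paxillus_8184 with 0.87. Each was over 0.5 on MH, at 0.78, 0.71, 1.06 and 0.80 in this order, and paxillus_5893 was also over 0.5 on CMC, at 0.66. Next to paxillus_4605 and the pair paxillus_2753 and paxillus_2754, then, stood an isotig with a larger change on MC and a change on MH too. Next to paxillus_4287 and paxillus_479 stood paxillus_4286, with 0.798 on MC and at most 0.24 elsewhere, and paxillus_480, with 0.77 on MC and at most 0.07 elsewhere, both short of the limit on MC alone.

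All calls of the 36 in the limma fit to all isotigs repeat values that chose them, also where MC is set against CMC or MH, and are a description. In this fit 21 of them were called higher on MC than on MMN with more than a 2-fold difference and an adjusted p below 0.01. Of all isotigs, 2.81% were called. Of the 15 not called, 14 had changes under 2-fold and paxillus_13081 missed the limit on p. Higher on MC than on CMC were 25 of the 36 and 0.819% of all isotigs. For the change on MC minus the change on MH, 13 of the 36 and 0.278% of all isotigs were called. None of the 36 was called higher on FH, MH or CMC, as the limits require. Calls of higher levels took in 0.966%, 4.49% and 1.66% of all isotigs in that order. None was called lower in these media either, where the limits set no lower bound. Calls of lower levels took in only 0.303% of all isotigs on FH, 1.19% on MH and 0.352% on CMC. The labels call the replicates biological and give no further detail of how they were separated.

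The 2 isotigs left out had the same form. Tyrosinase paxillus_7541, of a family that oxidises phenols, stood at 11.53, 12.14 and 12.17 on MC and at 10.65, 10.66 and 10.62 on MMN of slide 2, a change of 1.30, with -0.16 on MH. Cytochrome P450 monooxygenase paxillus_3631, of a family that adds oxygen to organic compounds, stood at 12.07, 12.18 and 12.48 on MC and at 10.99, 11.07 and 11.01 on MMN, a change of 1.22, with 0.36 on MH.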

How the data were processed

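The deposited values are log2 levels, 1 for each isotig on each array, for which the authors ran RMA (background correction, normalization between arrays, summary over probes). The sources used here give no version of RMA. The array medians lay between 11.45 and 11.47 and 12203 of 12214 isotigs had 10 probes. Per-array values and the series table were identical. The row of random control probes was left out of the fit. All 18 arrays were fitted with limma 3.58.1 in R 4.3.3 (lmFit, eBayes) with 6 group means, and p-values were adjusted over all 12214 isotigs by the Benjamini-Hochberg method. Precision is limited by the number of arrays. For MMN of slide 2, where the medium label holds the strain, the group was taken from the title. The fit was tested on simulated data.

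The members, limits and lists were chosen with earlier results of these data known. Named are the 24 isotigs with the largest change on MC, those nearest the limits, those with neighbouring numbers, those with the highest and lowest level on MMN and the one with the widest spread on MC (paxillus_13081). Outside this rule, paxillus_5453, paxillus_12896, paxillus_8444, paxillus_7895, paxillus_445 and paxillus_13054 were named after their values were seen. Alternatives were other control means, medians, normalizations, thresholds and variance models, no dim isotigs, the replicate number as a block and leaving out each array.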

Additional observations from a re-analysis of the deposited data

How the results depend on the processing

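With paxillus_7541 and paxillus_3631 left out in every setting, 36 isotigs met the limits. The number was 22 with a change of at least 1.0 on MC and 17 with changes of 0.3 or less in the other media. Leaving out 1 array at a time gave 27 (without MH replicate 1) to 49 (without MC replicate 1), and 19 of the 36 met the limits in all 18 cases. With the mean of all 6 MMN arrays as control 31 isotigs met them, of which 27 were among the 36, and after a repeated quantile normalization 32, of which 29 were. Without the 25% of isotigs with the lowest mean, 24 of the 36 remained, and no median over the 36 could be given. The other settings kept the counts within 1.5 times. With the replicate number as a block, 343 isotigs were called higher on MC than on MMN, 21 of the 36 among them, and 100 higher on MC than on CMC, the same counts as without the block. The replicate numbers were checked for pairing. Deviations of same-numbered arrays of MC and MMN of slide 2 correlated at 0.04, -0.06 and 0.22. Only MC replicate 3 correlated best with its own number. With 3 arrays in a group, this cannot decide whether arrays of the same number were handled together. The MMN arrays of slides 1 and 2 deviated together by number, and the fit treats these 6 arrays as independent. This touches the change on MC minus the change on MH and the mean of 6 MMN arrays. It also touches the estimate of the spread, which all comparisons of the fit share. Leaving out 1 array gave 17 to 27 of the 36 called on MC, 315 to 370 isotigs called in all, a median change on MC from 0.96 to 1.13, 93 to 108 isotigs called higher on MC than on CMC and 33 to 35 of the 36 with the MC arrays above all others. Among 492 values of the change on MC of the 36 isotigs under these settings none turned its sign, 12 lost a call and 13 gained one, from 11 isotigs, and the cause was not tested. The choice of the 36 by a change of at least 0.8 on MC in these same arrays left little room for a turned sign. Signal close to the random control probes limits what can be said of paxillus_13081, paxillus_12896 and paxillus_13054.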
